A study of Mus musculus with 8 samples.

Results

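The ligands and receptors of the vascular endothelial growth factor (VEGF) family were followed in RNA from mouse thoracic aortic endothelium with and without induced deletion of Mef2c. The set was the 10 genes Vegfa, Vegfb, Vegfc, Vegfd, Pgf, Kdr, Flt1, Flt4, Nrp1 and Nrp2, and a member was measured where a probe set carried its symbol and no other. That held for 9 of the 10, each with 1 probe set, out of 30051 genes so named on the array. Vegfd carried its older symbol Figf, and the probe set that listed Nrp1 also listed the microRNA gene Mir1903, so no value is given for Nrp1. All 9 passed the filter on level, a mean log2 expression above 6.14 (the median of all probe sets), as did 16215 genes in all. Kdr, Pgf and Nrp2 lay below 8.23, the 75th percentile of all probe sets.

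All 8 mice were female, carried the tamoxifen-inducible recombinase gene Cdh5-CreERT2, driven by the VE-cadherin promoter, and had both Mef2c alleles floxed (Mef2c f/f). At 10 weeks of age 4 of them received 5 daily injections of tamoxifen (EKO) and 4 littermates received sunflower seed oil with 10% ethanol alone (control). Aortas were collected on day 14, counted from the first injection, and 1 array was run for each aorta. Tamoxifen went to the EKO mice alone, so effects of the drug and of the deletion cannot be told apart. Mef2c itself read 9.62 to 9.88 in control and 9.56 to 10.03 in EKO arrays (difference -0.03, SE 0.11, limma adjusted p = 0.946). Which exons were floxed is not in the labels, and its single probe set summarises all exons, so this value does not check the deletion.

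The endothelial identity of the RNA was checked on 11 tested markers of 12 listed. Their averages over the arrays ran from 6.25 for Robo4, just above the filter on level, to 18.2 for Pecam1, with Cdh5 at 16.4, Icam2 at 9.70 and Emcn at 9.36. The mean of the 11 markers ranged from 13.24 to 13.44 in control and from 13.17 to 13.44 in EKO arrays. Markers of other cell types gave signal as well. The mean of 9 adipocyte markers ranged from 8.10 to 10.65 in control and from 7.76 to 10.22 in EKO arrays, with the brown fat gene Ucp1 averaging 14.4. The mean of 9 fibroblast markers ranged from 8.92 to 9.48 and from 8.68 to 9.24, and that of 9 smooth muscle markers from 7.52 to 7.86 and from 7.69 to 8.23. Mesothelial markers (4 tested) averaged 6.80 to 9.74 in control and 6.51 to 7.73 in EKO arrays, and macrophage markers (7 tested) 6.97 to 7.72 and 7.26 to 7.84. The mesothelial 9.74 was control array 4, and the other controls lay at 6.80 to 7.33. Each of these lists held a tested gene or more with an average below 7.34, the lowest array median of the control probe sets marked neg.

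The VEGF family consists of secreted dimeric ligands and receptor tyrosine kinases found mainly on endothelium. VEGF-A binds the receptors encoded by Flt1 and Kdr and is the main driver of blood vessel growth and permeability, placental growth factor and VEGF-B bind Flt1 alone, and VEGF-C and VEGF-D bind the receptor encoded by Flt4 and govern lymphatic growth. Neuropilins bind VEGF ligands and semaphorins as co-receptors. In adult arteries the family maintains quiescent endothelium, and ligands also come from smooth muscle, fibroblasts and adipocytes of the vessel wall and its surroundings.

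Promoter sequences are shown for 3 members, since MEF2 proteins act by binding DNA. Vegfd had the widest group difference, Vegfb was the member whose slope on adipocyte markers passed the test with all arrays in, a call lost when any array was left out, and Flt1 was the other member with a TATAAA element. Each stretch is the 250 bases before the gene's start in RefSeq (mouse assembly GRCm38.p6), read 5′ to 3′ on the gene's strand. Capitals mark TATAAA and GGGCGG on either strand.

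Vegfd, chrX:164373272-164373521, plus strand: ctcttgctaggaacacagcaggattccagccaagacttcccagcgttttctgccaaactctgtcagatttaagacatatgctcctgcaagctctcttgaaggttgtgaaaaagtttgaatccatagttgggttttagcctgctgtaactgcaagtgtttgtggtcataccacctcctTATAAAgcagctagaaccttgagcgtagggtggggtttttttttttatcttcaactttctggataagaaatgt

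Vegfb, chr19:6987652-6987901, minus strand: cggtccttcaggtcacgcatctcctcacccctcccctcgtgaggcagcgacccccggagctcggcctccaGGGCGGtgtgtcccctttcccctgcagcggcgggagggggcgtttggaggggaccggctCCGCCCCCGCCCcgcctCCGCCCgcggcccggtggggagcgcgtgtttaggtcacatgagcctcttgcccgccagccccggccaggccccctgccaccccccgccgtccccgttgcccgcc

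Flt1, chr5:147726012-147726261, minus strand: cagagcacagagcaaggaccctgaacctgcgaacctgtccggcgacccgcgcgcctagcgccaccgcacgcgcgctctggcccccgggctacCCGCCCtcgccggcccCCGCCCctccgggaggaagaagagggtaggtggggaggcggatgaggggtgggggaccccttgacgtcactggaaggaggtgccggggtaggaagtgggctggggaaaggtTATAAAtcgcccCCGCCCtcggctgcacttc

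These sequences differ in base composition and in core elements. The Vegfd stretch has a GC content of 42.4%, a TATAAA that begins at position -73 relative to the start, and no GGGCGG. The Vegfb stretch has a GC content of 76.4% and 4 copies of GGGCGG, and the Flt1 stretch has 70.4%, 3 copies of GGGCGG and a TATAAA at position -31. RefSeq gave 12 such windows for the 10 genes. TATAAA, searched on both strands, was found in 2 of the 12 and in 12.4% of all 32851 windows of this length, and GGGCGG in 10 of the 12 and in 32.7% of all windows. The MEF2 consensus of 10 bases, which reads the same on both strands, was found in 0 of the 12 windows and in 2.92% of all windows. Its absence says only that these letters are not in these windows.

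In none of the 9 genes did the group difference pass the threshold of 0.05 on the limma adjusted p, and in none of the 16215 genes tested (0%, smallest adjusted p 0.473). At an unadjusted p under 0.05 limma gave 1450 of the tested genes (8.94%), and 1 of the 9, Vegfd. The groups did not overlap for 989 tested genes (6.1%), and for 1 of the 9, again Vegfd. These shares leave 1 gene of 9 close to the background. Differences are EKO minus control, on the log2 scale. They were below 0 in 6 of the 9 genes and in 55.1% of all genes tested, with a median of -0.05 for the 9 and of -0.02 for all tested. The median size regardless of sign was 0.08 for the 9 and 0.10 for all tested.

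**Figure D1:**
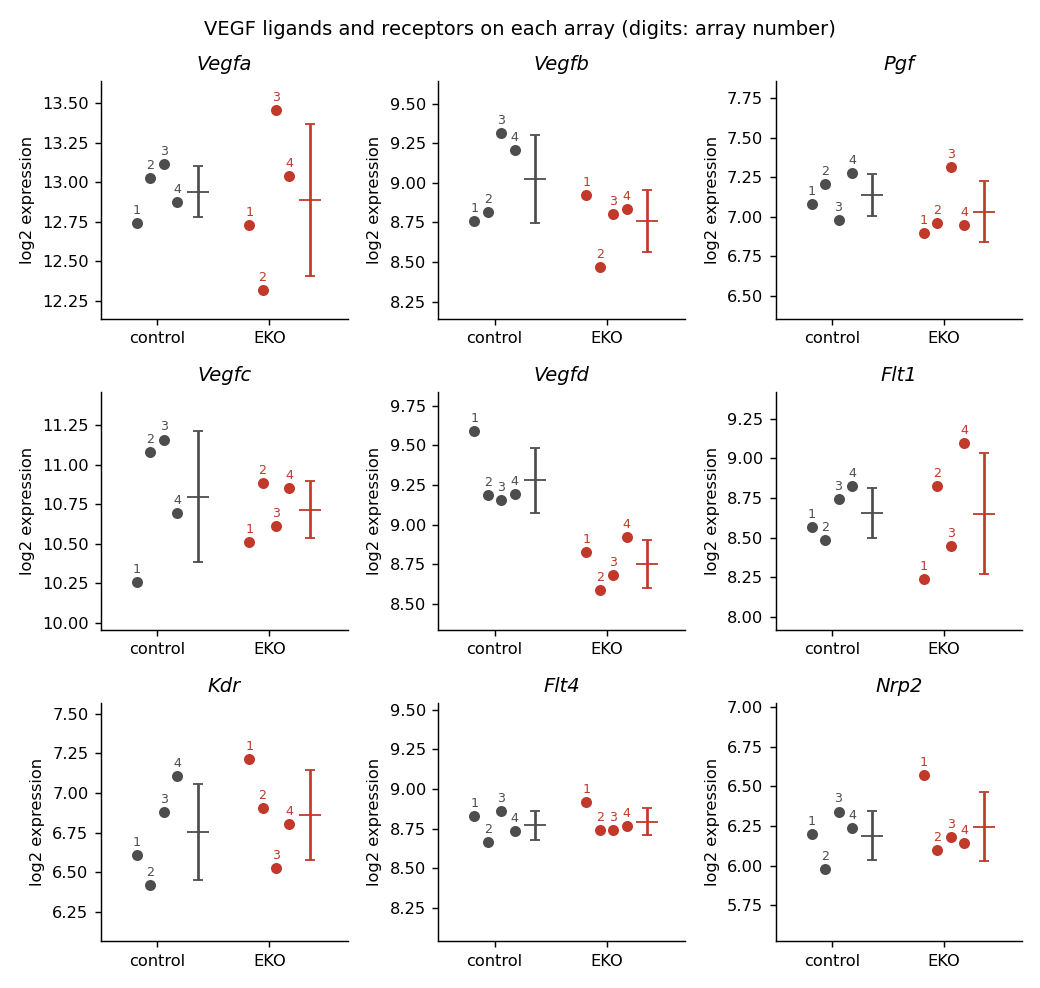
Log2 expression (y axis) of the 9 genes on each of the 4 control (grey) and 4 EKO (red) arrays, with the array number above each point and the mean ± SD beside each group; all panels span the same number of log2 units. The Vegfd values of the EKO arrays, 8.58 to 8.92, all lie below those of the control arrays, 9.16 to 9.59, and the groups overlap in the other 8 panels.

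Vegfd, the ligand of the Flt4 product known from lymphatic growth, was the member that differed most. It read 9.59, 9.19, 9.16 and 9.20 on control arrays 1 to 4 and 8.83, 8.58, 8.68 and 8.92 on EKO arrays 1 to 4. Every EKO array lay below every control array, and control array 1 stood above the other control arrays. Control aortas averaged 9.28 ± 0.21 and EKO aortas 8.75 ± 0.15 (SD, n = 4). EKO minus control was -0.53 (SE 0.12), with a 95% confidence interval from -0.80 to -0.25. Its limma unadjusted p was 0.00195 and its adjusted p 0.473, and the two-sided exact permutation p was 0.0286, the smallest that 70 assignments of the arrays can give. The control level was 1.44-fold the EKO level (interval 1.19 to 1.74). Differences at least as large were seen in 296 of the 16215 tested genes (1.83%), and Vegfd ranked 58 by p. In whole flushed RNA, fewer cells of a type and less RNA per cell cannot be told apart.

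Vegfd kept its direction with each array left out, at -0.58 to -0.42. Its difference was -0.52 with the adipocyte marker mean as a covariate, -0.57 with the fibroblast, -0.45 with the smooth muscle and -0.52 with the endothelial marker mean. Fibroblast markers were lower in EKO arrays too, by a mean of -0.30 (7 of 9 tested lower, exact permutation p = 0.171, range 8.92 to 9.48 in control and 8.68 to 9.24 in EKO arrays). Across the arrays Vegfd had slopes of 0.02 on the adipocyte mean and -0.14 on the fibroblast mean, in log2 units of Vegfd per log2 unit of the marker mean within groups, and neither passed (limma adjusted p = 0.906 and 0.875). Its slope on the endothelial mean was 1.57 (SE 0.40, limma adjusted p = 1.00), a list that moved by little between arrays. In that mean control array 1 and EKO array 4, the arrays highest in Vegfd within their groups, were highest as well (13.44 on each). Emcn was highest of all arrays on control array 1 and Cldn5 on EKO array 4.

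Vegfc, the closest relative of Vegfd and the principal lymphatic ligand, did not differ beyond the spread between arrays. It read 10.26, 11.08, 11.16 and 10.69 on control arrays 1 to 4 and 10.51, 10.88, 10.61 and 10.85 on EKO arrays 1 to 4. All EKO values lay inside the control range, which was set by control arrays 1 and 3. The difference was -0.08 (SE 0.20, interval -0.53 to 0.37, limma adjusted p = 0.904). Leaving out control array 1 gave -0.26, and the sign turned with control array 2 (0.013) or control array 3 (0.040) left out. Over all fits with 1 array left out it ranged from -0.26 to 0.040. Control array 1, where Vegfc was lowest, was the array where Vegfd was highest.

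Vegfa, the ligand of Kdr and Flt1, had nearly equal means in the 2 groups and the widest spread of the 9 genes. It read 12.74, 13.03, 13.11 and 12.88 on control arrays 1 to 4, and 12.73, 12.32, 13.46 and 13.04 on EKO arrays 1 to 4. EKO arrays 2 and 3 were the lowest and the highest of all 8. The means were 12.94 ± 0.16 and 12.89 ± 0.48 (SD, n = 4), a difference of -0.05 (SE 0.22, interval -0.55 to 0.45, limma adjusted p = 0.946). Leaving out EKO array 2 gave 0.135, control array 3 gave 0.0039 and EKO array 3 gave -0.24. Of the tested genes 89.8% had a smaller SD within groups than Vegfa. The interval for Vegfa leaves room for a level 1.47-fold higher in control or a fold of 0.734.

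Vegfb, a ligand of Flt1 that is abundant in tissues rich in mitochondria, read 8.76, 8.81, 9.31 and 9.21 on control arrays 1 to 4. On EKO arrays 1 to 4 it read 8.92, 8.47, 8.81 and 8.83. Control arrays 3 and 4 were highest and EKO array 2 lowest, and the groups overlapped. The means were 9.02 ± 0.28 and 8.76 ± 0.20 (SD, n = 4), a difference of -0.27 (SE 0.15, interval -0.61 to 0.08, limma adjusted p = 0.619). The difference was -0.17 with the adipocyte marker mean as a covariate and -0.01 with the fibroblast marker mean. Without EKO array 2 or without control array 3 it was -0.17. It was larger in other fits, at -0.35 with the smooth muscle marker mean as a covariate or without control array 1. Without control array 2 it was -0.34, and without EKO array 1 -0.32.

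Pgf, which encodes placental growth factor, read 7.08, 7.20, 6.98 and 7.28 on control arrays 1 to 4 and 6.90, 6.96, 7.32 and 6.95 on EKO arrays 1 to 4. Of the EKO arrays 3 lay below every control array and EKO array 3 lay above every control array. The difference was -0.10 (SE 0.11, interval -0.36 to 0.15, limma adjusted p = 0.770). Leaving out EKO array 3 gave -0.20, control array 4 gave -0.057 and EKO array 1 gave -0.061. The Pgf values lay below the median of the array's control probe sets marked neg, 7.34 to 7.45, on all 8 arrays, as did those of Kdr and Nrp2. All 9 genes lay above the median of the array's background probe sets, 3.63 to 3.75. The 95th percentile of the probe sets marked neg was 11.49 to 11.84, and of the 9 genes Vegfa alone lay above it.

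**Figure D2:**
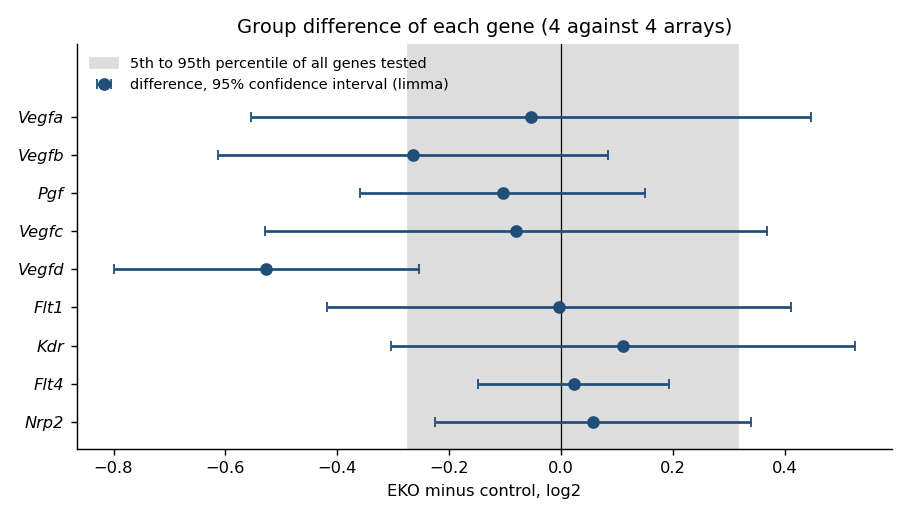
EKO minus control difference in log2 expression (x axis) of each of the 9 genes (rows), with the 95% confidence interval from limma; the grey band runs from the 5th to the 95th percentile of the differences of all 16215 genes tested, -0.27 to 0.32. Vegfd, at -0.53, is the one gene whose interval does not reach 0.

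Flt1 encodes VEGF receptor 1, which binds VEGF-A tightly and, in its soluble form, traps it. It read 8.57, 8.48, 8.74 and 8.83 on control arrays 1 to 4 and 8.24, 8.83, 8.45 and 9.10 on EKO arrays 1 to 4. The EKO arrays lay on both sides of the control range, with EKO array 1 lowest and EKO array 4 highest. The means were 8.66 ± 0.16 and 8.65 ± 0.38 (SD, n = 4), and the difference of -0.0037 (SE 0.18, interval -0.42 to 0.41, limma adjusted p = 0.996) turned sign with quantile normalization (0.04) and with centring on the array median (0.03). It also did so without control array 3 (0.025), control array 4 (0.054), EKO array 1 (0.13) or EKO array 3 (0.065).

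Kdr encodes VEGF receptor 2, the main signalling receptor of VEGF-A in endothelium. It read 6.61, 6.42, 6.88 and 7.11 on control arrays 1 to 4 and 7.22, 6.91, 6.53 and 6.81 on EKO arrays 1 to 4. EKO array 1 was the highest, and the other EKO arrays lay inside the control range. The difference was 0.11 (SE 0.18, interval -0.30 to 0.53, limma adjusted p = 0.852). It was -0.0068 without EKO array 1, -0.0014 without control array 2, 0.23 without control array 4, 0.22 without EKO array 3 and 0.06 without control array 1. With the fibroblast marker mean as a covariate it was 0.36, and with the adipocyte marker mean 0.20.

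Flt4 encodes VEGF receptor 3, the receptor of VEGF-C and VEGF-D on lymphatic and some blood vessel endothelium, and varied least. It read 8.83, 8.66, 8.86 and 8.73 on control arrays 1 to 4 and 8.92, 8.74, 8.74 and 8.77 on EKO arrays 1 to 4. All but EKO array 1 lay inside the control range. The difference was 0.02 (SE 0.07, interval -0.15 to 0.19, limma adjusted p = 0.931), and only 16.1% of the tested genes had a smaller SD within groups. Its interval is the narrowest of the 9 and covers folds of 0.875 to 1.11 in control over EKO. Of 6 listed lymphatic markers 3 were tested, with a mean of 5.999 to 6.83 in control and 6.12 to 6.43 in EKO arrays. Prox1, the transcription factor that defines lymphatic endothelium, read 4.82 to 5.09, under the filter on level.

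Nrp2 encodes neuropilin 2, a co-receptor of the VEGF-C pathway. It read 6.20, 5.98, 6.34 and 6.24 on control arrays 1 to 4 and 6.57, 6.10, 6.18 and 6.14 on EKO arrays 1 to 4. EKO array 1 was the highest, and the other EKO arrays lay inside the control range. The difference was 0.06 (SE 0.12, interval -0.23 to 0.34, limma adjusted p = 0.891), and turned sign with quantile normalization (-0.03) and with EKO array 1 (-0.05) or control array 2 (-0.013) left out.

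Several of the 9 genes shared their extreme arrays. Kdr, Flt4 and Nrp2 were each highest on EKO array 1 and lowest on control array 2, while Flt1 was lowest on EKO array 1. Kdr and Nrp2 lay below the median of the control probe sets marked neg on all 8 arrays. EKO array 1 had the highest smooth muscle marker mean (8.23) and the highest macrophage marker mean (7.84). Control array 2 had the lowest macrophage marker mean (6.97) and an adipocyte marker mean of 8.10. Vegfa and Pgf were highest on EKO array 3, and Vegfb and Vegfc on control array 3. Vegfa, Vegfb and Vegfd were lowest on EKO array 2, which had the lowest adipocyte (7.76) and fibroblast (8.68) marker means and the highest neutrophil marker mean (9.32). The part of these cell types in the extremes was not tested.

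Each gene was then set against the marker mean of 4 cell types in a fit over all genes tested, with the group as a term and the markers themselves left out. Of 16206 genes 587 (3.62%) had a slope on the adipocyte mean that passed the threshold, and 353 (2.18%) on the fibroblast mean. For smooth muscle 0 of 16206 passed (0%, 704 at an unadjusted p under 0.05), and for the endothelial mean 0 of 16204 (0%, 504). Among the 9 genes Vegfb alone passed, on the adipocyte mean, where it rose by 0.20 for each log2 unit (SE 0.04, limma adjusted p = 0.0470). The call was lost when any 1 array was left out, with slopes of 0.18 to 0.22 and adjusted p of 0.0542 to 0.159. On the fibroblast mean its slope was 0.87 (SE 0.17, limma adjusted p = 0.0501).

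The arrays richest in one marker set were also the richest in the other. Control arrays 3 and 4 and EKO array 1 had the highest adipocyte means (10.65, 10.30 and 10.22) and the highest fibroblast means (9.45, 9.48 and 9.24). The orders of the other arrays differed, with 8.10 and 9.06 on control array 2 against 9.48 and 8.94 on EKO array 4. With the shared highest arrays, the slopes on the 2 lists cannot be clearly told apart. The number of genes that passed on the fibroblast mean was 0 without control array 3, control array 4, EKO array 2 or EKO array 3, 1 without EKO array 1, 198 without control array 2 and 211 without EKO array 4. For the adipocyte mean it was 258 without control array 2, 310 without control array 3, 352 without control array 4 and 297 without EKO array 1. Kdr and Nrp2 had slopes of 0.19 (SE 0.07) and 0.14 (SE 0.04) on the adipocyte mean that did not pass (limma adjusted p = 0.236 and 0.162). On the fibroblast mean their slopes were 0.85 and 0.55 (limma adjusted p = 0.227 and 0.269). Both genes lay below the median of the control probe sets marked neg on all 8 arrays.

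**Figure D3:**
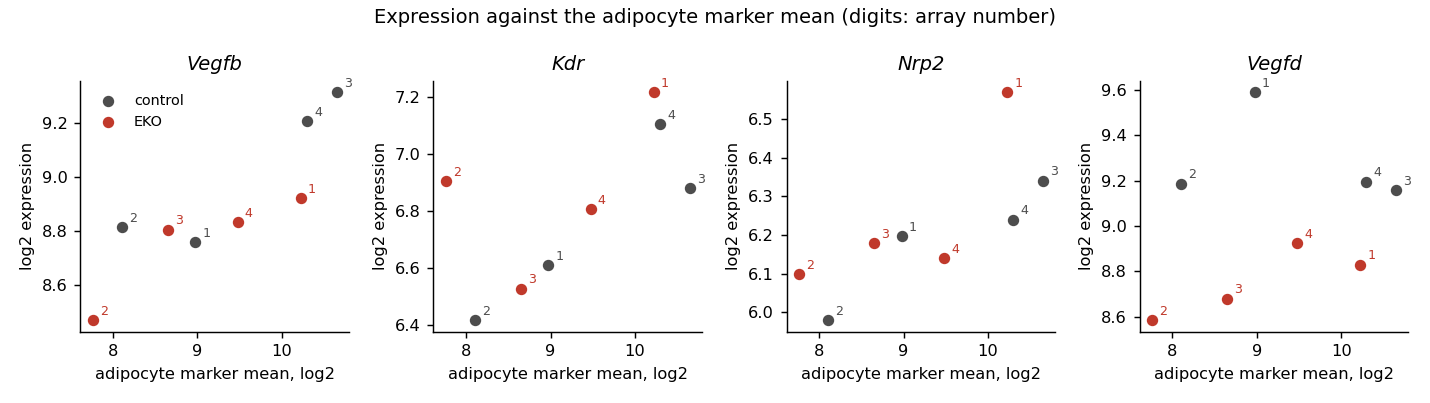
Log2 expression (y axes, with a scale of their own) of Vegfb, Kdr, Nrp2 and Vegfd against the mean log2 level of 9 adipocyte markers (x axis) on the 4 control (grey) and 4 EKO (red) arrays, numbered by array. Vegfb is lowest on EKO array 2, at an adipocyte mean of 7.76, and highest on control array 3, at 10.65, while the Vegfd values of the EKO arrays lie below those of the control arrays throughout.

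The genes most alike in pattern were taken as those with the highest Pearson r over the 8 arrays among 10706 tested genes with established names. With so many candidates and 8 arrays, high values are the upper end of a long list and carry no test. Vegfb was closest to Uqcr11, which encodes a subunit of respiratory complex III (r = 0.992), and to Apool, a gene of the mitochondrial inner membrane (0.986). Vegfd was closest to the endosomal membrane protein gene Tm9sf1 (0.986) and to Ppp3ca (0.976), which encodes a catalytic subunit of calcineurin and is itself on the list of VEGF signal transducers. Over the arrays Tm9sf1 read 9.35 to 9.51 and Ppp3ca 12.74 to 12.98, narrower ranges than that of Vegfd. The r was taken over both groups together, so a split between groups adds to it. Vegfa was closest to the translation factor gene Eif3k (0.976) and Cdk2ap2 (0.966), Vegfc to Morn2 (0.972) and Bbip1 (0.962), and Pgf to the RNA helicase gene Ddx3x (0.945) and the splicing gene Snrpb (0.934). Flt1 was closest to Zfhx2 (0.980) and Pdlim1 (0.971), and Kdr to Smoc2 (0.974) and Lctl (0.960). Elf4, an ETS family transcription factor, was the second closest gene to both Flt4 (0.961) and Nrp2 (0.956), after Ubxn4 (0.963) and Mphosph10 (0.962).

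Of 6 lists of other genes of the pathway, 0 of the tested members passed the threshold in either direction. The lists are described by their counts and medians beside the median of -0.02 for all genes tested. For the processing of VEGF-C and VEGF-D, which are secreted as precursors and cut by proteases, 4 of 8 genes were tested and all 4 differences were below 0 (median -0.05). The proprotein convertase genes Pcsk5 (-0.12), Pcsk7 (-0.06) and Furin (-0.03) and the protease gene Adamts3 (-0.02) differed by less than their standard errors. Ccbe1, the cofactor of that cleavage, lay under the filter on level.

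Co-receptors, antagonists and regulators of the receptors had 24 tested of 28 genes, 10 higher and 14 lower (median -0.03). An unadjusted p under 0.05 was given for 1 of the 24, Sema3f (8.94% of all genes tested), and groups did not overlap for 1, Epn1 (6.1% of all genes tested). Sema3f, which encodes a neuropilin 2 ligand that competes with VEGF, averaged 11.71 ± 0.11 over the control and 11.48 ± 0.16 over the EKO arrays (SD, n = 4), and differed by -0.23 (SE 0.10, limma adjusted p = 0.557). Gipc1, whose product carries receptor vesicles inward, differed by -0.19, and the endocytic adaptor gene Epn1 by -0.16. Clec14a, an endothelial surface lectin gene, differed by 0.22. Leaving out 1 array brought Gipc1 to -0.13 (EKO array 3), Epn1 to -0.10 (control array 4) and Clec14a to 0.13 (EKO array 2). In the other direction it brought Gipc1 to -0.25 (EKO array 1), Epn1 to -0.18 (EKO array 4) and Clec14a to 0.28 (control array 2). Thbs1 had the lowest value of the list (-0.25) and Plxnd1, a semaphorin receptor gene, the highest (0.23).

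Signal transducers below the receptors had 24 tested of 32 genes, 6 higher and 18 lower (median -0.08). Map2k1, the MAP kinase kinase MEK1, read 10.03, 9.96, 10.18 and 9.93 on control arrays 1 to 4 and 9.94, 9.75, 9.65 and 9.73 on EKO arrays 1 to 4. EKO array 1 was the one that overlapped the controls. The difference was -0.26 (SE 0.09, limma unadjusted p = 0.0181, adjusted p = 0.525). The kinase gene Akt1 differed by -0.18, the protein kinase C gene Prkca by -0.33 and the PI3 kinase regulatory subunit gene Pik3r1 by -0.29. Groups did not overlap in 2 of the 24 genes, Akt1 and Ppp3ca, and in 6.1% of all genes tested. An unadjusted p under 0.05 was given for 1 of the 24, Map2k1, and for 8.94% of all genes tested. Without EKO array 2 the difference was -0.10 for Akt1, and without control array 4 it was -0.22 for Prkca and -0.17 for Pik3r1. It reached -0.21 for Akt1 without EKO array 4 and -0.40 for Pik3r1 without EKO array 1. For Prkca it reached -0.46 without control array 1.

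Genes that VEGF-A induces in cultured endothelium had 15 tested of 20, 12 higher and 3 lower, with a median of 0.11. Plaur, the urokinase receptor gene, read 9.82, 9.47, 9.82 and 9.71 on control arrays 1 to 4 and 10.52, 10.09, 10.27 and 9.77 on EKO arrays 1 to 4. EKO array 4 overlapped the controls. The difference was 0.46 (SE 0.16, limma unadjusted p = 0.0193, adjusted p = 0.525). Ptgs2, the cyclooxygenase 2 gene, differed by 0.58 (SE 0.44) and read 9.90 on EKO array 2, where the neutrophil marker mean was also highest (9.32). The Ptgs2 difference was 0.15 without that array, 0.38 without control array 2 and 0.90 without EKO array 3. The chemokine receptor gene Cxcr4 differed by 0.52 (SE 0.41) and the nuclear receptor gene Nr4a2 by -0.43 (SE 0.25). Cxcr4 was at 0.19 without control array 2 and at 0.88 without control array 4. Nr4a2 was at -0.21 without control array 3 and at -0.64 without control array 2. Neutrophil markers averaged 6.07 to 7.94 in control and 6.67 to 9.32 in EKO arrays, with 5 of 5 tested higher (exact permutation p = 0.4). EKO arrays 1, 3 and 4 averaged 6.67 to 7.47, inside the control range, and EKO array 2 alone lay above it. The part of neutrophils in the differences of these VEGF-A induced genes was not tested.

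Oxygen sensing genes and targets of hypoxia-inducible factors, which drive Vegfa, had 13 tested of 15, 3 higher and 10 lower (median -0.11). Hif1an, which encodes an inhibitor of HIF-1, differed by -0.16 (SE 0.09), the prolyl hydroxylase gene Egln1 by -0.31 (SE 0.23), Arnt by -0.11 and the lactate dehydrogenase gene Ldha by -0.24 (limma adjusted p = 0.622 for Hif1an, the smallest of the list). Egln1 and Ldha were highest on control array 3, as was the adipocyte mean, and leaving out that array gave -0.17 and -0.086. Egln1 was at -0.16 without EKO array 2 and at -0.45 without control array 2. Ldha ranged from -0.39 to -0.086 over the fits with 1 array left out. With the adipocyte mean as a covariate they differed by -0.15 and -0.089, and with the fibroblast mean by 0.082 and 0.17. Hif1an was at -0.10 without control array 1 and -0.22 without control array 4. Arnt was at -0.062 without EKO array 2, -0.070 without EKO array 3 and -0.16 without EKO array 4. Transcription factors of the receptor genes had 13 tested of 15, 6 higher and 7 lower (median -0.02). Sox18 differed by 0.18, Mef2d by -0.10, Tal1 by -0.11 and Foxc2 by -0.08 (smallest limma adjusted p 0.635). Mef2d was at -0.058 without control array 1, -0.057 without EKO array 2 and -0.14 without control array 4. Tal1 was at -0.051 without EKO array 2 and -0.18 without EKO array 3. Foxc2 was at -0.053 without control array 1 and -0.14 without control array 2.

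**Figure D4:**
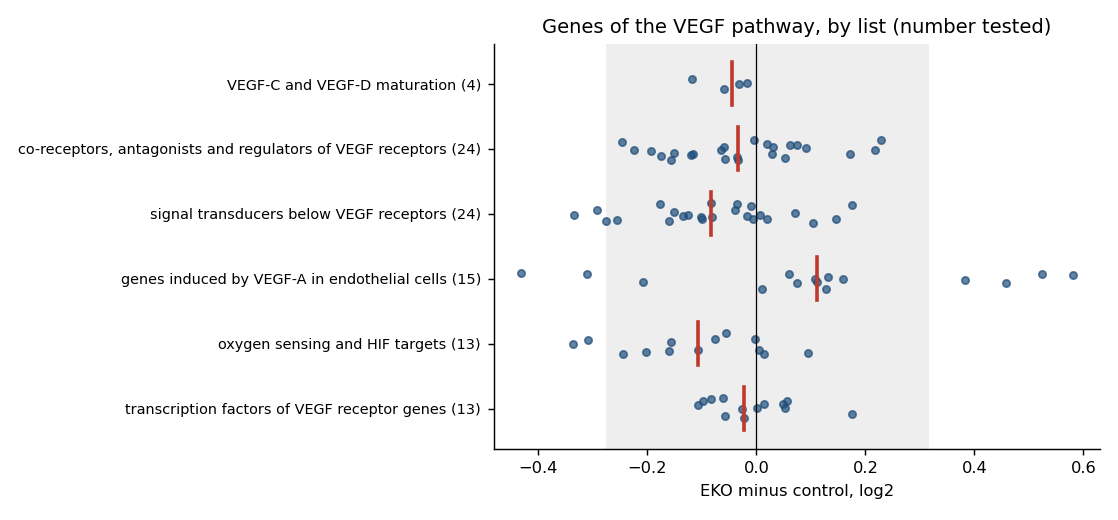
EKO minus control difference in log2 expression (x axis) of each tested gene (points) in the 6 lists of VEGF pathway genes (rows, number tested in brackets), with the median of each list as a red bar and the 5th to 95th percentile of all tested genes as a grey band. List medians run from -0.11 for oxygen sensing to 0.11 for genes induced by VEGF-A, and no point passed the threshold.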

How the data were processed

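RNA flushed with TRIzol from the lumen of single aortas, 5 ng per sample, was measured on Affymetrix Mouse Transcriptome Arrays 1.0, per the labels' protocols. Per the labels, the authors ran Expression Console with the SST-RMA method and deposited 1 log2 value for each transcript cluster. Its version and the genome build are not given in the sources used here, so coordinates are shown only for RefSeq promoter windows. This normalization includes a quantile step, which aims to even out overall signal between arrays. In the deposited values the median of all probe sets still ran from 6.06 on control array 4 to 6.24 on EKO array 2.

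Of 72688 probe sets, 6732 were array controls, 30604 had 1 gene symbol in the platform annotation, 2146 had several and 33206 are unnamed here. Symbols were updated through RefSeq (GRCm38.p6), which matched 30602. Of 30407 probe sets whose identifier names a chromosome, 102 were left out because RefSeq places the gene elsewhere, among them one that a synonym would have assigned to Nrp2, a check added after seeing the data. For the 353 genes with several probe sets the brightest was used. Genes with a mean above that of the middle probe set were tested with limma 3.58.1 in R 4.3.3 (lmFit, eBayes, no covariates), with Benjamini-Hochberg adjustment over all 16215 genes. Exact permutation tests were two-sided (scipy 1.17.1). Limma fits of the same form were also tried on simulated data. Noise there was drawn independently for each gene, so variation shared between genes was not covered. The labels give no batch or date. Arrays correlated pairwise with r of 0.980 to 0.993 across genes, which are not independent replicates, and the number of arrays limits the precision. Same-numbered arrays were not paired: the correlations of their deviations were -0.16, 0.21, -0.24 and 0.13.

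The members, lists and tests were chosen with earlier results of these data known. The genes named are all members, the up to 4 tested genes of each pathway list with the smallest p, and the 2 genes most alike each member. Thbs1, Plxnd1, Ccbe1, Prox1, Robo4, Pecam1, Cdh5, Icam2, Emcn, Ucp1 and Cldn5 were named from the lists after their values were seen, and Mef2c as the targeted gene.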

Additional observations from a re-analysis of the deposited data

Results flagged for a closer look

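Dixon's criterion was applied to 84 groups of 4 arrays. They came from the 9 VEGF genes, the 24 named pathway genes and the means of all 9 marker lists. In 9 groups 1 array stood apart from the other 3, where chance gives about 1 in 20 for independent groups. These groups share the same arrays, and the pathway genes were chosen by p, so the count cannot be read against that rate. Among the VEGF genes, Vegfd read 9.59 on control array 1 against 9.16 to 9.20 on the other controls, and its difference without that array was -0.42. Pgf read 7.32 on EKO array 3 against 6.90 to 6.96. EKO array 1 stood apart for Flt4 (8.92 against 8.74 to 8.77) and for Nrp2 (6.57 against 6.10 to 6.18). Epn1 read 9.31 on control array 4 against 9.10 on the others, and Prkca 7.94 on EKO array 4 against 7.50 to 7.58. Control array 1 also stood apart in the endothelial marker mean (13.44 against 13.24 to 13.25) and in the smooth muscle marker mean (7.52 against 7.84 to 7.86). Among the endothelial markers Emcn read 10.85 there against 8.56 to 9.36 on the other controls. Cldn5 read 16.10 there against 16.12 to 16.86. The macrophage marker mean was 6.97 on control array 2 against 7.63 to 7.72 on the other controls.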

How the results depend on the processing

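The count of genes past the threshold was 0 in all 21 alternatives, which covered the filter, probe set choice, normalization, variance model, array weights, 4 covariates, each array left out and the replicate block. With the replicate block 0 genes passed and Vegfd had an adjusted p of 0.584. Vegfd, Vegfb and Pgf kept their direction in every alternative run, Vegfd at an adjusted p of 0.225 to 0.790, and no member passed in any. Pgf ranged from -0.20 to -0.057 with each array left out. The other 6 members turned sign in some alternatives, and the cause was not tested. With array weights Vegfa was 0.0055. With quantile normalization Flt1 was 0.043, Nrp2 -0.025 and Furin 0.011, and with arrays centred on their median Flt1 0.031, Furin 0.0039 and Adamts3 0.018. The adipocyte covariate turned Flt1 (0.0018), and the fibroblast covariate Vegfa (0.041), Furin (0.030), Egln1 (0.082) and Ldha (0.17). The smooth muscle covariate turned Flt1 (0.13), Kdr (-0.021), Nrp2 (-0.033), Pcsk5 (0.033), Pcsk7 (0.0064) and Adamts3 (0.0082). With each array left out, differences ranged from -0.24 to 0.135 for Vegfa, -0.26 to 0.040 for Vegfc, -0.15 to 0.13 for Flt1, -0.0068 to 0.23 for Kdr, -0.019 to 0.053 for Flt4 and -0.051 to 0.11 for Nrp2. For Pcsk7 they ranged from -0.13 to 0.0022 and for Adamts3 from -0.066 to 0.021. Slopes of Vegfd ranged from -0.022 to 0.062 on the adipocyte mean and from -0.35 to 0.26 on the fibroblast mean. Counts of genes with a called slope ranged from 258 to 554 for adipocyte, 0 to 289 for fibroblast, 0 to 4 for endothelial and 0 to 0 for smooth muscle markers. Kdr, Pgf and Nrp2 were not in the fit filtered at the 75th percentile.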

Other observations

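Flt1 and the endothelial tight junction gene Cldn5, a pair chosen after their values were seen, had similar orders over the arrays. Cldn5 read 16.10, 16.12, 16.86 and 16.51 on control arrays 1 to 4 and 15.53, 16.46, 15.62 and 17.27 on EKO arrays 1 to 4. Both genes were lowest on EKO array 1 and highest on EKO array 4. Pecam1 moved little over the same arrays, from 18.07 to 18.23. Emcn, also an endothelial marker, had another order, at 10.85, 9.36, 8.56 and 8.76 on control arrays 1 to 4. On EKO arrays 1 to 4 it read 10.20, 8.18, 9.91 and 9.09.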
